A study of Mus musculus with 58 samples.

Results

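Described here are 10 mouse genes whose human counterparts carry risk for Alzheimer's disease and are studied for their part in myeloid cells, as measured in brain tissue of injured and sham mice. The genes were *Inpp5d*, *Plcg2*, *Abi3*, *Spi1*, *Cd33*, *Ms4a6d*, *Bin1*, *Picalm*, *Cd2ap* and *Rin3*. They were found by their symbols, and all 10 of 10 were among the 15171 genes of the deposited count table.

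The mice were C57BL/6 animals in which human *APOE3* (E3) or *APOE4* (E4) replaced mouse *Apoe* on both alleles. They carried either both copies of *Abca1*, the cholesterol exporter that lipidates APOE (*Abca1*+/+), or 1 functional copy (*Abca1*+/-). At 3 months of age they received a craniotomy with a controlled cortical impact over the left hemisphere (TBI) or the craniotomy alone (sham), and hippocampus and cortex of the slice that held the injury were frozen together 14 days later and sequenced. Injured and sham groups held 8 and 8 E3/Abca1+/+ mice, 6 and 7 E3/Abca1+/- mice, 7 and 7 E4/Abca1+/+ mice, and 8 and 7 E4/Abca1+/- mice, each group with males and females. All 58 mice therefore had human *APOE*, anaesthesia and an opened skull, and there was no mouse with its own *Apoe* and no mouse without surgery.

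Microglia are the resident macrophages of the brain, and after injury they multiply, retract their processes and are joined by monocytes from the blood. Many receptors on these cells signal through adaptors with an immunoreceptor tyrosine-based activation motif (ITAM), which recruit kinases, phospholipase C gamma 2 (*Plcg2*) and phosphoinositide 3-kinase. The inositol phosphatase SHIP1 (*Inpp5d*) and inhibitory lectins such as human CD33 restrain this signalling. The transcription factor PU.1 (*Spi1*) switches on the genes of the myeloid lineage. *Bin1*, *Picalm*, *Cd2ap* and *Rin3* encode proteins that bend membranes, gather clathrin, link receptors to actin and activate Rab5 on early endosomes, and the first 3 are made by many cell types besides microglia.

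All 10 genes are annotated as protein-coding (GENCODE vM21 on GRCm38, the assembly also named mm10, which the submitters' processing notes give). *Inpp5d* lies on the plus strand at chr1:87620312-87720507, *Plcg2* on the plus strand at chr8:117498291-117635142, *Spi1* on the plus strand at chr2:91082390-91115756 and *Rin3* on the plus strand at chr12:102283048-102390855. *Cd33* lies on the minus strand at chr7:43524216-43544428, *Ms4a6d* on the minus strand at chr19:11586604-11604849, *Abi3* on the minus strand at chr11:95830074-95842476 and *Cd2ap* on the minus strand at chr17:42792951-42876665. *Picalm* lies on the plus strand at chr7:90130213-90213465 and *Bin1* on the plus strand at chr18:32377230-32435737. Exons of *Abi3* overlap exons of *Gngt2* and *Phospho1* on the other strand over a length equal to 43.1% of the longest *Abi3* transcript, and exons of *Bin1* overlap those of *A830052D11Rik* over 256 bases. The sources used here do not say that strand was used in counting, so reads in these stretches cannot be assigned with certainty.

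Libraries held 4421308 to 37877346 counts. The median was 18871446 in the 28 mice with 1 copy of *Abca1* and 8350020 in the 30 mice with both, so copy number and depth cannot be told apart between these groups. Counts for the rarest member, *Ms4a6d*, ran from 5 to 233 per mouse and those for the most abundant, *Bin1*, from 1014 to 9207. As a check of the labels, *Abca1* in sham mice averaged 48.5 ± 6.92 CPM (SD, n = 8) with both copies and 35.3 ± 3.84 CPM (n = 7) with 1 copy on the E3 background, and 45.6 ± 6.42 CPM (n = 7) and 35.8 ± 4.86 CPM (n = 7) on the E4 background. The log2 differences were -0.45 (SE 0.08, adjusted p = 0.00999) and -0.36 (SE 0.09, adjusted p = 0.0785, edgeR). After TBI it averaged 170 ± 54.7 CPM (n = 8) in E3/Abca1+/+ and 104 ± 21.1 CPM (n = 6) in E3/Abca1+/- mice, a log2 difference of -0.71 (SE 0.18, adjusted p = 0.124, edgeR), and 156 ± 74.6 CPM (n = 7) in E4/Abca1+/+ and 138 ± 44.5 CPM (n = 8) in E4/Abca1+/- mice, a log2 difference of -0.18 (SE 0.25, adjusted p = 0.755, edgeR). Microglia were present by their defining genes, *Cx3cr1* averaging 63.1 CPM in sham and 126 CPM in injured mice and *P2ry12* 39.2 and 51.7 CPM, where levels of genes outside the 10 are given as the mean of the 4 genotype means. The summed CPM of 21 microglia markers lay between 550 and 899 in the 29 sham mice and between 1042 and 2513 in the 29 injured mice. In whole tissue, more cells of a type and more RNA per cell cannot be told apart.

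RefSeq promoter entries (GRCm38.p6) matched 6 of the 10 genes, *Inpp5d*, *Plcg2*, *Cd33*, *Picalm*, *Cd2ap* and *Rin3*. Since 1 of the 10 encodes PU.1, the windows from 250 bases before to 50 bases after the annotated start were searched on both strands for the core of the PU box, GAGGAA, and for the longer form GAGGAAGT, whose matches are a subset of the core's. The core was present in the windows of 3 of these 6 genes (*Inpp5d*, *Cd33* and *Picalm*) and in 28.3% of all 32851 promoters. The longer form was present in 1, *Inpp5d*, and in 3.20% of all promoters. Below are the 3 windows with a match and that of *Plcg2*, a gene that rose with *Inpp5d* but whose window held none. Each is 280 bases, 5′ to 3′ on the gene's strand, ending 30 bases after the start; capitals mark the core, read as TTCCTC where it lies on the other strand.
*Inpp5d*, chr1:87620062-87620341, plus strand: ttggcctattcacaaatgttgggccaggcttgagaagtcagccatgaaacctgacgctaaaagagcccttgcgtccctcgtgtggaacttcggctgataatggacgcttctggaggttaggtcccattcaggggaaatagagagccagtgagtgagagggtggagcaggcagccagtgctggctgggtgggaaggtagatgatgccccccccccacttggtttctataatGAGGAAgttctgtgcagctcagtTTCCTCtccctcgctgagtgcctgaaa
*Plcg2*, chr8:117498025-117498304, plus strand: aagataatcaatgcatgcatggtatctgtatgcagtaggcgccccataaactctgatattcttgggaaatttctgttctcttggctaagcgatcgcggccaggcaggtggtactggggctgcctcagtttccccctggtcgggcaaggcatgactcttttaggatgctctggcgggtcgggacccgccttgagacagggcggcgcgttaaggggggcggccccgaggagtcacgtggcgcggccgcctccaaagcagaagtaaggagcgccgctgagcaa
*Cd33*, chr7:43533142-43533421, minus strand: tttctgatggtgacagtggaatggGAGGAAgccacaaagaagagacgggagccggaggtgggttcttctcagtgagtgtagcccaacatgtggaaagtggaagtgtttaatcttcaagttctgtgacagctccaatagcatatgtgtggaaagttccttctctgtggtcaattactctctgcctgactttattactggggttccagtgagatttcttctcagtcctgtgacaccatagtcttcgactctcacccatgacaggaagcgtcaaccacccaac
*Picalm*, chr7:90129963-90130242, plus strand: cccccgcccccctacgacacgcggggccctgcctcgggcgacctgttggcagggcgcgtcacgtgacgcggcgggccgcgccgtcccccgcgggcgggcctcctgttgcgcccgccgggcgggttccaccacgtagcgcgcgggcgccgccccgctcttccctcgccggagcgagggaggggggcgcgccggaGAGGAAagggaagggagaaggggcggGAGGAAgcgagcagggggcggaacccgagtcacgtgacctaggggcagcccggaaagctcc

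The match to the longer form in the *Inpp5d* window began 20 bases before the start, and a second core on the other strand began at base 4 after it. The RefSeq start of *Cd33* lies 11257 bases inside the gene as GENCODE bounds it, where 1 of its 3 transcripts in the GENCODE basic set begins. Its window held 1 core 226 bases before the start, and that of *Picalm* held 2, at 57 and 31 bases before it. The windows also differed in base composition. G and C made up 47.7% of the *Cd33* window with 4 CpG dinucleotides and 53.7% of the *Inpp5d* window with 6, near the median over all promoters of 52.7% and 7. The *Picalm* and *Cd2ap* windows had 78.0% and 77.0% with 44 and 41 CpG dinucleotides, above the 90th percentile of 69.7%. The *Plcg2* window had 60.0% with 21, and the 2 *Rin3* windows had 69.0% and 61.3% with 26 and 15. A match of letters is a description of the sequence and shows no binding.

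TBI raised the 7 genes *Inpp5d*, *Plcg2*, *Abi3*, *Spi1*, *Cd33*, *Ms4a6d* and *Rin3* in each of the 4 genotypes, by 0.66 to 2.53 on the log2 scale. The endocytic genes *Bin1*, *Picalm* and *Cd2ap* moved little, between -0.10 and 0.34. In E3/Abca1+/+ mice 8 of the 10 genes were higher after TBI and 1, *Bin1*, was lower (adjusted p under 0.05 over 15171 genes, edgeR's quasi-likelihood test), where 13.3% of all genes were called higher and 9.49% lower. In E3/Abca1+/- mice 8 were higher and 0 lower, against 13.7% and 10.1% of all genes. In E4/Abca1+/+ mice 7 were higher and 0 lower, against 9.24% and 4.5%, and in E4/Abca1+/- mice 8 were higher and 0 lower, against 19.7% and 12.7%. Over the mean of the 4 genotypes, with all 58 mice in the fit, 9 were higher and 1 lower, against 29.0% and 24.3% of all genes. The median log2 change of the 10 genes in that fit was 1.04 and that of all genes 0.01.

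**Figure D1:**
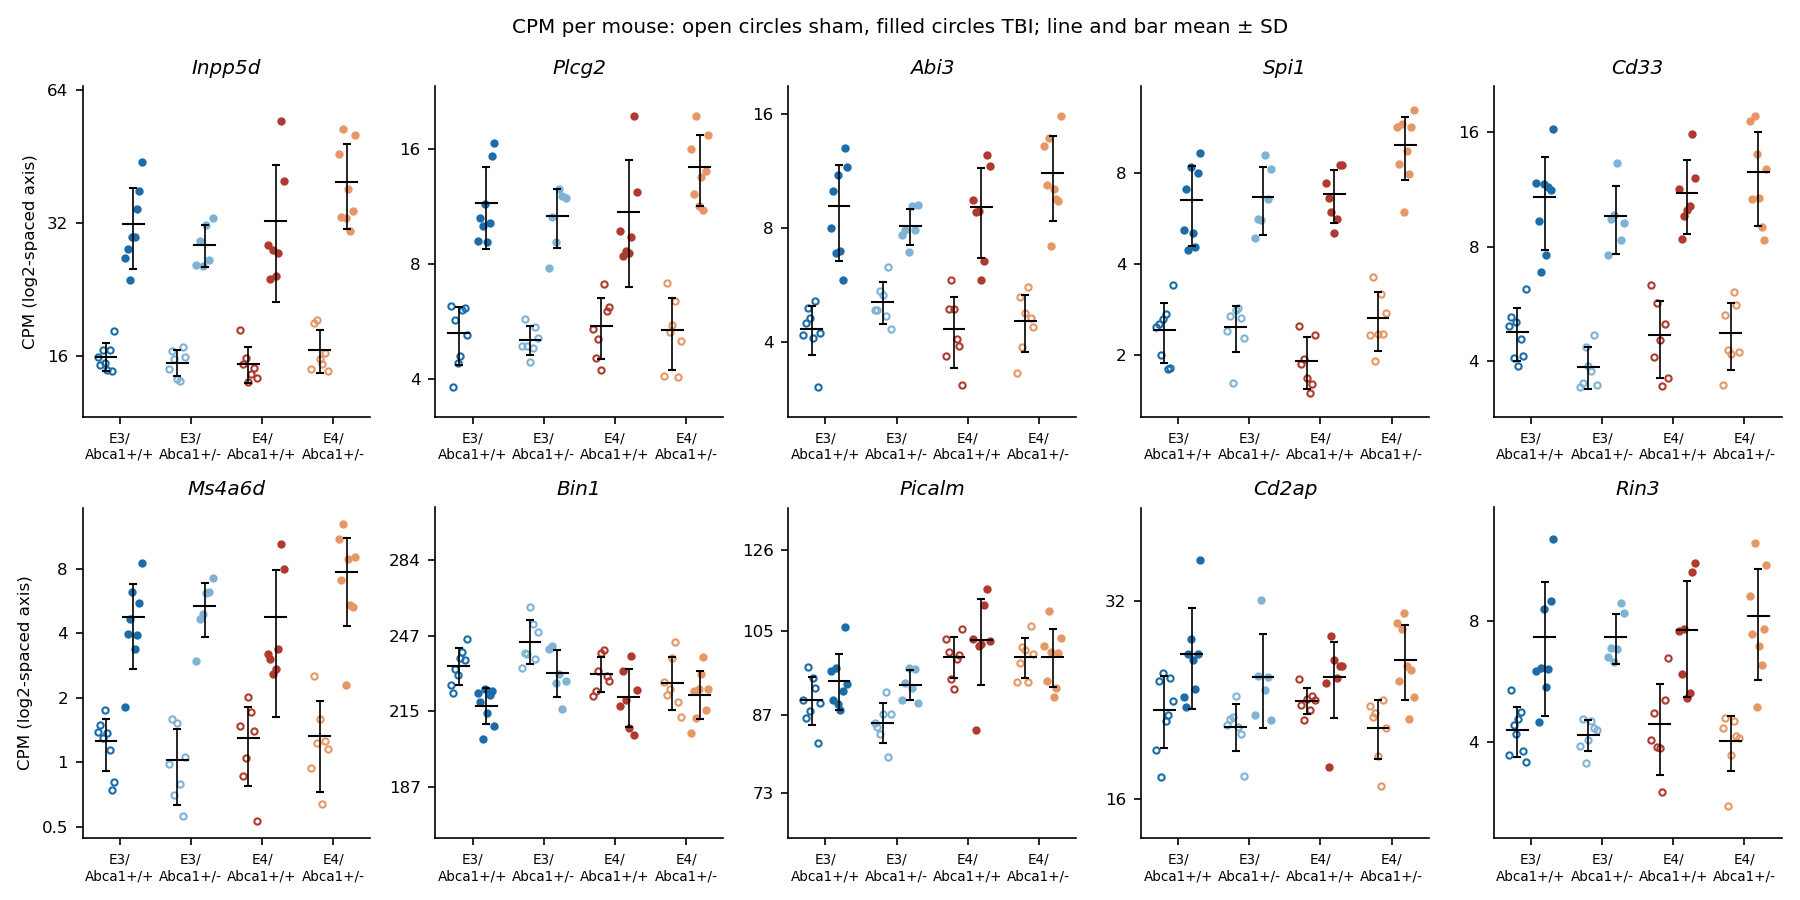
CPM of the 10 genes in each of the 58 mice (y axis spaced by log2), with open circles for sham mice, filled circles for injured mice and a line and bar for mean ± SD of each group of 6 to 8 mice. For *Inpp5d*, *Plcg2*, *Spi1* and *Cd33* every injured mouse lies above every sham mouse, while for *Bin1* and *Picalm* the clouds overlap; the axis of each panel has its own range and does not start at 0.

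Among the signalling genes, *Inpp5d*, the phosphatase that removes the 5-phosphate of PIP3, had a lowest, median and highest level of 14.8, 15.7 and 18.2 CPM in E3/Abca1+/+ sham mice and of 23.7, 29.8 and 43.9 CPM after TBI. The same values were 14.1, 15.7 and 16.8 CPM before and 25.6, 27.7 and 32.9 CPM after injury in E3/Abca1+/- mice. Sham levels in all genotypes thus fell in a narrow band below every injured mouse. In E4/Abca1+/+ mice they were 14.0, 15.02 and 18.3 CPM in sham and 24.0, 27.8 and 54.5 CPM in injured mice, and in E4/Abca1+/- mice 14.8, 15.7 and 19.3 CPM and 30.7, 36.1 and 52.2 CPM. The log2 fold changes in this order of genotypes were 1.00 (SE 0.10), 0.88 (SE 0.07), 1.05 (SE 0.16) and 1.27 (SE 0.12), with adjusted p from 2.81e-07 to 0.000348 (edgeR).

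*Plcg2*, the phospholipase that cleaves PIP2 behind ITAM receptors, lay between 3.81 and 7.13 CPM in the 29 sham mice and between 7.78 and 19.4 CPM in the 29 injured mice, with no overlap. Its medians in sham and injured mice were 5.45 and 10.4 CPM in E3/Abca1+/+, 4.88 and 11.2 CPM in E3/Abca1+/-, 5.38 and 9.37 CPM in E4/Abca1+/+, and 5.28 and 13.7 CPM in E4/Abca1+/- mice. The log2 fold changes were 1.12 (SE 0.14), 1.07 (SE 0.11), 0.97 (SE 0.18) and 1.41 (SE 0.15), and the largest of their adjusted p was 0.00171 (edgeR). *Abi3*, a subunit of the WAVE complex that drives branching of actin, ran from 3.06 to 6.31 CPM in sham and from 5.82 to 15.8 CPM in injured mice. Here 27 of 29 injured mice lay above all sham mice. It rose by 1.06 (SE 0.16) in E3/Abca1+/+, 0.66 (SE 0.10) in E3/Abca1+/-, 1.07 (SE 0.18) in E4/Abca1+/+ and 1.30 (SE 0.16) in E4/Abca1+/- mice. Its neighbours on the other strand moved in opposite directions, *Gngt2* by 1.56 (SE 0.12, adjusted p = 2.86e-16) and *Phospho1* by -0.53 (SE 0.10, adjusted p = 1.19e-05) over the mean of the 4 genotypes (edgeR), and the part of their reads in the count of *Abi3* was not tested.

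*Spi1*, which encodes PU.1, had 1.80, 2.51 and 3.41 CPM as lowest, median and highest value in E3/Abca1+/+ sham mice and 4.45, 6.13 and 9.33 CPM after TBI. In E3/Abca1+/- mice it had 1.63, 2.65 and 2.87 CPM in sham and 4.87, 6.10 and 9.19 CPM in injured mice. In E4/Abca1+/+ mice it had 1.50, 1.87 and 2.50 CPM and 5.09, 6.64 and 8.48 CPM, and in E4/Abca1+/- mice 1.92, 2.36 and 3.62 CPM and 5.95, 10.4 and 12.9 CPM. The lowest injured mouse of the series thus had more *Spi1* than the highest sham mouse. The log2 fold changes were 1.48 (SE 0.19), 1.42 (SE 0.16), 1.78 (SE 0.16) and 1.88 (SE 0.17), all past the threshold. Counts were as low as 7 in 1 sham mouse, so the fold of a single mouse is imprecise.

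The surface proteins rose as well. *Cd33*, a sialic acid-binding lectin, lay between 3.42 and 6.34 CPM in sham and between 6.86 and 17.6 CPM in injured mice, again without overlap. Its log2 fold changes of 1.21 to 1.41 were the most alike among genotypes of the 7 genes. *Ms4a6d*, a 4-span membrane protein of the MS4A cluster, changed most. Its lowest, median and highest values were 0.743, 1.33 and 1.76 CPM in E3/Abca1+/+ sham and 1.81, 4.30 and 8.45 CPM in injured mice, and 0.563, 0.978 and 1.60 CPM and 2.96, 5.54 and 7.23 CPM in E3/Abca1+/- mice. They were 0.532, 1.40 and 2.02 CPM and 2.59, 3.20 and 10.4 CPM in E4/Abca1+/+ mice, and 0.639, 1.23 and 2.53 CPM and 2.29, 7.97 and 12.8 CPM in E4/Abca1+/- mice. Injured mice lay above sham mice of their own genotype in all but E4/Abca1+/-, where 1 injured mouse fell within the sham range. The log2 fold changes were 1.95 (SE 0.28), 2.38 (SE 0.24), 1.89 (SE 0.37) and 2.53 (SE 0.32). *Ms4a6d* has close relatives in the same cluster, and reads shared with them may have been lost or split in counting.

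The 4 endocytic genes divided. *Rin3*, a guanine nucleotide exchange factor for Rab5, ran from 2.78 to 6.49 CPM in sham and from 4.48 to 12.7 CPM in injured mice and rose by 0.77 (SE 0.18), 0.80 (SE 0.10), 0.74 (SE 0.20) and 1.02 (SE 0.18) in the 4 genotypes, the largest adjusted p being 0.0177 (edgeR). The groups overlapped in E3/Abca1+/+ and E4/Abca1+/+ mice. *Cd2ap*, an adaptor between receptors and actin, had medians of 22.0 and 26.3 CPM in E3/Abca1+/+ sham and injured mice, 20.7 and 23.9 CPM in E3/Abca1+/-, 22.7 and 25.4 CPM in E4/Abca1+/+ and 21.3 and 25.3 CPM in E4/Abca1+/- mice. It rose in E3/Abca1+/+ mice (log2 fold change 0.29, SE 0.10, adjusted p = 0.0439, edgeR) and E4/Abca1+/- mice (0.34, SE 0.09, adjusted p = 0.00593). The values of 0.25 in E3/Abca1+/- mice (SE 0.09, adjusted p = 0.0508) and 0.12 in E4/Abca1+/+ mice (SE 0.08, adjusted p = 0.359) did not pass the test (edgeR), and no interaction of genotype and injury passed for this gene. The call in E3/Abca1+/+ mice was lost with DESeq2's size factors (adjusted p = 0.0505) and in thinned libraries (adjusted p = 0.0827), and that in E4/Abca1+/- mice in thinned libraries (adjusted p = 0.159). The value in E3/Abca1+/- mice passed with DESeq2's Wald test (adjusted p = 0.0387), with 10 counts in every mouse (adjusted p = 0.046) and with sex as a covariate (adjusted p = 0.0373).

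*Bin1*, a membrane-bending amphiphysin relative, had medians of 234.0 CPM in E3/Abca1+/+ sham and 219.96 CPM in injured mice, 239 and 229 CPM in E3/Abca1+/-, 229 and 219.5 CPM in E4/Abca1+/+ and 224 and 223 CPM in E4/Abca1+/- mice. All groups overlapped in part with those of the other treatment. It was lower after TBI in E3/Abca1+/+ mice (log2 fold change -0.10, SE 0.04, adjusted p = 0.0409) and over the mean of the 4 genotypes (-0.07, SE 0.02, adjusted p = 0.000515, edgeR). The former call was lost in thinned libraries (-0.10, adjusted p = 0.186). *Picalm*, which gathers clathrin and sets the size of endocytic vesicles, lay between 79.2 and 106 CPM in sham and between 84.1 and 116 CPM in injured mice. It rose in E3/Abca1+/- mice (0.12, SE 0.04, adjusted p = 0.0214) and over the mean of the 4 genotypes (0.06, SE 0.02, adjusted p = 0.0266, edgeR), and neither call held throughout. That in E3/Abca1+/- mice was lost in the single fit over 58 mice (0.12, adjusted p = 0.0576) and in thinned libraries (0.08, adjusted p = 0.758, edgeR). That over the 4 genotypes was lost with DESeq2's Wald test (0.04, adjusted p = 0.0995), with its size factors (adjusted p = 0.0913) and in thinned libraries (adjusted p = 0.209). In E4/Abca1+/- mice its estimate was 0.00 (SE 0.04).

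**Figure D2:**
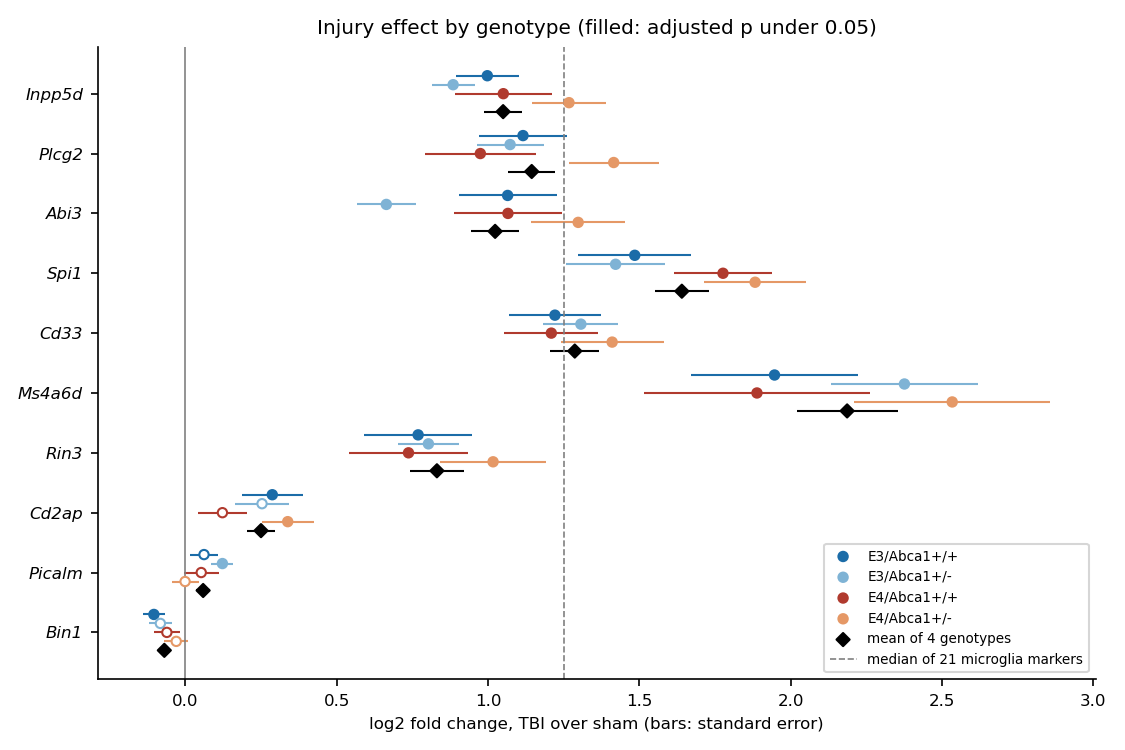
Log2 fold change of TBI over sham (x axis) for each of the 10 genes, with a circle for each genotype, a diamond for the mean of the 4 genotypes and bars for the standard error; filled symbols have an adjusted p under 0.05 and the dashed line marks the median of 21 microglia markers, 1.25. *Ms4a6d* and *Spi1* lie to the right of that line, *Cd33* on it, and *Bin1*, *Picalm* and *Cd2ap* next to 0.

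Without any overlap between the 29 injured and 29 sham mice were 4 of the 10 genes, *Inpp5d*, *Plcg2*, *Spi1* and *Cd33*, against 1.05% of all genes. Within a genotype the lowest injured value exceeded the highest sham value for 6 of the 10 in E3/Abca1+/+ mice (4.36% of all genes), 7 in E3/Abca1+/- (6.57%), 5 in E4/Abca1+/+ (3.76%) and 6 in E4/Abca1+/- mice (7.36%). For 0 of the 10 was every injured mouse below every sham mouse of its genotype. The share of all genes in that direction was not counted, so nothing is concluded from this 0.

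When all libraries were thinned to the lowest total of 4421308 counts, 3 of the 10 genes were called in E3/Abca1+/- mice in place of 8, *Inpp5d*, *Plcg2* and *Ms4a6d*. *Spi1* then had a log2 fold change of 1.73 (adjusted p = 0.0592), *Cd33* of 0.94 (adjusted p = 0.133), *Abi3* of 0.59 (adjusted p = 0.458) and *Rin3* of 0.42 (adjusted p = 0.599, edgeR). Calls over all genes fell as well, from 13.7% to 3.57% higher and from 10.1% to 2.9% lower in these mice. Thinned libraries gave 7 genes called higher in E3/Abca1+/+ mice (8.63% of all genes), 6 in E4/Abca1+/+ (5.95%) and 6 in E4/Abca1+/- mice (7.4%), and 0 called lower in each, against 6.1%, 3.03% and 4.71% of all genes. Over the mean of the 4 genotypes they gave 8 higher and 1 lower, against 17.7% and 15.1% of all genes. *Rin3* was also lost in E4/Abca1+/+ (0.83, adjusted p = 0.0587) and E4/Abca1+/- mice (0.82, adjusted p = 0.119, edgeR).

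Levels of different genes were compared as CPM per kilobase of each gene's longest transcript. In sham mice *Bin1* stood at 87.1 ± 4.04 CPM per kb (SD, n = 29) and *Picalm* at 11.4 ± 0.887, followed by *Cd2ap* at 3.82 ± 0.373 and *Inpp5d* at 3.20 ± 0.285. *Plcg2* (1.23 ± 0.204), *Spi1* (1.17 ± 0.266), *Abi3* (1.14 ± 0.194) and *Rin3* (1.09 ± 0.181) did not differ beyond their spread, and *Ms4a6d* (0.866 ± 0.324) and *Cd33* (0.789 ± 0.153) came last. The first 3 steps of this order held in 29, 29 and 24 of 29 mice, and the step from *Plcg2* to *Spi1* in 16 of 29. After TBI the order of the middle changed. *Inpp5d* (6.77 ± 1.75) stood above *Cd2ap* (4.54 ± 0.673) in 28 of 29 injured mice, and *Ms4a6d* (4.02 ± 2.01) and *Spi1* (3.71 ± 1.14) stood next to each other, with *Ms4a6d* the higher in 15 of 29. The order rests on which transcript is taken for the length.

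The change of the 7 genes was set beside that of the 21 microglia markers, all 21 of which were called higher in the mean of the 4 genotypes, with a median log2 change of 1.25 and a range from 0.40 (*P2ry12*) to 2.28. *Spi1* changed by 1.64 (SE 0.09), more than 14 of the 21 markers, and *Ms4a6d* by 2.19 (SE 0.17), more than 20. *Cd33* (1.29, SE 0.08), *Plcg2* (1.14, SE 0.08), *Inpp5d* (1.05, SE 0.06) and *Abi3* (1.02, SE 0.08) lay in the middle of the markers, above 9 to 12 of them, and *Rin3* (0.83, SE 0.09) above 6. *Cd2ap*, *Picalm* and *Bin1* lay below all 21.

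Expressed as a percent of the summed microglia-marker CPM of the same mouse, the genes shifted relative to each other. *Ms4a6d* amounted to 0.188 ± 0.0655% in sham (SD, n = 29) and 0.334 ± 0.0957% in injured mice (n = 29), and *Spi1* to 0.363 ± 0.0715% and 0.461 ± 0.0586%. *Cd33* stood at 0.695 ± 0.134% and 0.695 ± 0.143%. *Inpp5d* went the other way, from 2.43 ± 0.207% to 2.06 ± 0.205%, as did *Abi3*, from 0.704 ± 0.114% to 0.585 ± 0.0788%, and *Rin3*, from 0.656 ± 0.132% to 0.472 ± 0.0835%. *Plcg2* fell too, from 0.812 ± 0.125% to 0.736 ± 0.0561%. *Bin1* amounted to 36.1 ± 3.72% in sham and 14.5 ± 3.66% in injured mice. These percents depend on the marker list, whose genes rose unequally themselves. *Csf1r* went from 122 CPM in sham to 237 CPM in injured mice, a log2 change of 0.96 (SE 0.05). *C1qa* went from 47.5 to 211 CPM, a log2 change of 2.13 (SE 0.09).

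Markers of other cell types moved with injury too, in the same fit, where 29.0% of all genes were called higher and 24.3% lower. Of 10 markers of infiltrating and border macrophages 9 were higher and 0 lower, with a median log2 change of 0.97, and their summed CPM ran from 17.1 to 43.4 in sham and from 28.2 to 124 in injured mice. *Ccr2*, which marks monocytes, averaged 0.311 CPM in sham and 2.24 CPM in injured mice and *Ms4a7*, a marker of border macrophages, 0.350 and 3.95 CPM. All 10 astrocyte markers were higher (median 0.56) and 11 of 12 neuron markers lower (median -0.25). Of 12 oligodendrocyte markers 3 were higher and 2 lower (median 0.03), and of 12 endothelial and mural markers 5 were higher and 0 lower (median 0.10). The 2 neutrophil markers and the 3 lymphocyte markers that the table lists were higher, at means of 2.08 CPM or less in injured mice. Their sham means were 0.651 CPM or less, and most markers of both kinds that were looked for are absent from the table. Those present may be listed only through injured mice, so no conclusion is drawn from their direction. Of 7 choroid plexus markers 0 passed the test, while their summed CPM ran from 12.0 to 1357 in sham and from 12.6 to 2064 in injured mice. Such a spread between mice leaves the test little power. Of 12 hippocampus markers 1 was higher and 3 were lower. The part of these cells in the change of the 10 genes was not tested.

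Genes that act with the 10 members were counted from lists of partners, over the mean of the 4 genotypes. For this and the lists that follow, the shares over all genes were 29.0% higher and 24.3% lower. Of 27 genes of ITAM and lipid signalling 23 were higher and 1 lower (median log2 change 1.03). They included the receptor *Trem2* (11.2 and 47.0 CPM in sham and injured mice, log2 fold change 2.05, SE 0.10), its adaptor *Tyrobp* (2.0, SE 0.11), the Fc receptor chain *Fcer1g* (1.89, SE 0.10) and the exchange factor *Vav1* (1.54, SE 0.09). The widely made kinase *Fyn* (0.08, adjusted p = 0.0882) and *Plcg1*, the relative of *Plcg2* in other cells (-0.05, adjusted p = 0.201), did not pass the test (edgeR). *Inppl1*, which encodes the related phosphatase SHIP2, rose by 0.29 (SE 0.04), and was named after its values were seen.

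The partners of *Abi3* divided. Of 18 genes of the WAVE complex and actin 9 were higher and 4 lower (median 0.04). The haematopoietic subunit *Nckap1l* (1.29, SE 0.07), the GTPase *Rac2* (1.95, SE 0.12), the exchange factor *Dock2* (1.52, SE 0.09) and *Arpc1b* of the Arp2/3 complex (1.42, SE 0.09) rose. *Arpc2* (-0.02, adjusted p = 0.598) and *Brk1* (0.01, adjusted p = 0.82) did not pass the test (edgeR). Among 20 measured partners of PU.1 and myeloid regulators 13 were higher and 4 lower (median 0.37), with *Runx1* (1.86, SE 0.12), *Irf8* (1.71, SE 0.11), *Ikzf1* (1.36, SE 0.08) and *Csf1r* (0.96, SE 0.05) among those that rose, and *Irf4* (0.29, adjusted p = 0.154) and *Klf4* (-0.03, adjusted p = 0.803) short of the threshold.

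Relatives of the surface proteins rose too. Of 6 measured Siglec genes besides *Cd33* 5 were higher and 0 lower (median 1.15), *Cd22* by 3.75 (SE 0.22), *Siglec1* by 3.67 (SE 0.27), *Siglecf* by 1.50 (SE 0.15), *Siglece* by 0.81 (SE 0.16) and *Siglech* by 0.55 (SE 0.05). *Mag*, the Siglec of myelin, had -0.01 (adjusted p = 0.876, edgeR). All 6 measured MS4A genes besides *Ms4a6d* were higher (median 3.03), among them *Ms4a7* by 3.50 (SE 0.26), *Ms4a4b* by 3.43 (SE 0.33), *Ms4a6c* by 2.87 (SE 0.22) and *Ms4a6b* by 1.38 (SE 0.14). Apart from *Siglech* and *Mag*, all measured relatives had sham means of 1.17 CPM or less, so their folds rest on few counts in sham mice. *Ms4a4b* had a sham mean of 0.0591 CPM. Most of the MS4A genes looked for are absent from the deposited table. Genes this low in sham mice may have entered it only through injured mice. The counts of higher relatives therefore cannot be weighed against the shares over all genes.

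Partners of the endocytic genes moved in both directions. Of 25 clathrin genes 5 were higher and 14 lower (median -0.08), with the dynamin of neurons *Dnm1* (-0.18, SE 0.02), *Snap91*, the neuronal relative of *Picalm* (-0.18, SE 0.02), and the kinase *Aak1* (-0.20, SE 0.03) lower and the widely made dynamin *Dnm2* (0.34, SE 0.03) higher. The clathrin adaptor *Dab2*, named after its values were seen, rose by 0.91 (SE 0.11), beside 0.83 for *Rin3*. Of 13 genes of the RIN family and the Rab5 endosome 4 were higher and 5 lower (median -0.03). *Rinl* (0.53, SE 0.07), *Rin2* (0.45, SE 0.04), *Rab31* (0.36, SE 0.04) and *Rab5c* (0.14, SE 0.02) rose, less than *Rin3*. Of 26 other measured Alzheimer risk genes 10 were higher and 5 lower (median 0.02), against 29.0% and 24.3% of all genes (median 0.01). The higher ones included *Trem2*, *Clu* (0.82, SE 0.04), *Grn* (1.26, SE 0.08) and *Treml2* (2.71, SE 0.18). *Bckdk* (0.01, adjusted p = 0.823) and *Cass4* (0.01, adjusted p = 0.961) did not pass (edgeR).

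**Figure D3:**
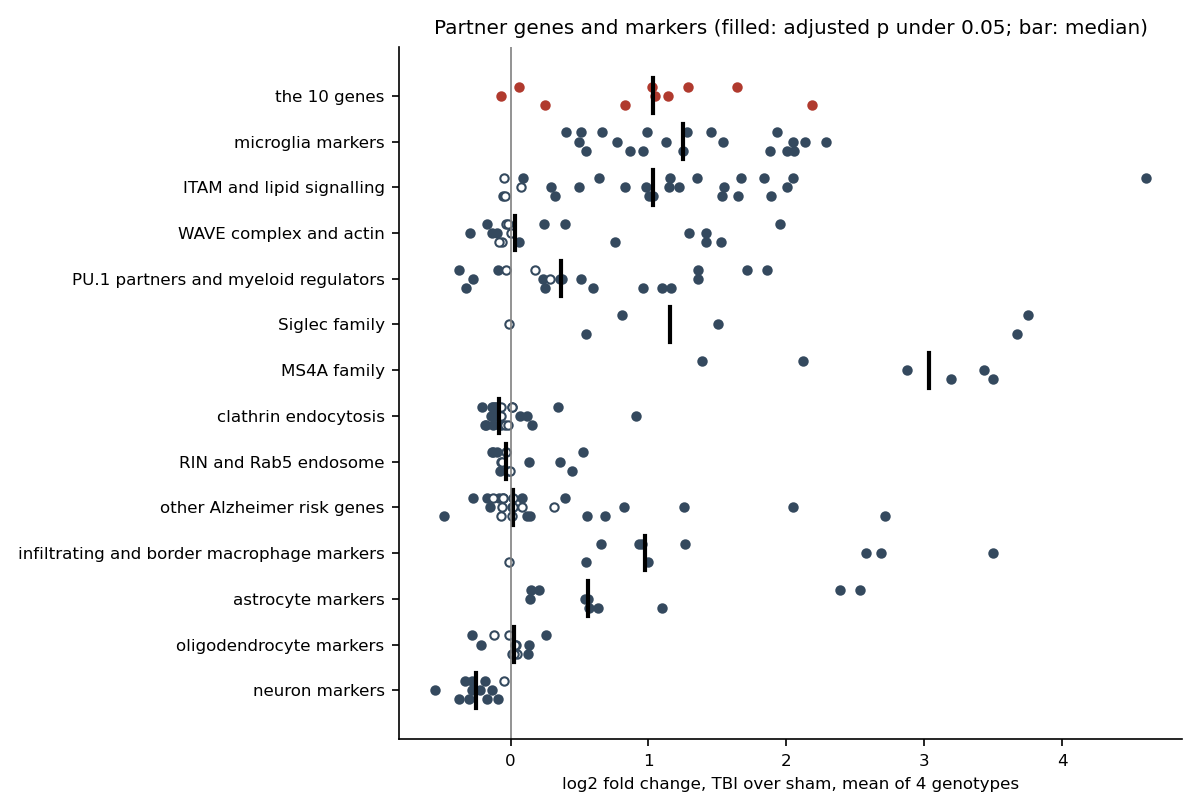
Log2 fold change of TBI over sham over the mean of the 4 genotypes (x axis) for each gene of the lists on the y axis, filled where the adjusted p was under 0.05, with a bar at the median of each list. The 10 genes (top) run from -0.07 (*Bin1*) to 2.19 (*Ms4a6d*), beside medians of -0.08 for the clathrin list and 1.25 for the microglia markers.

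The genes whose level over all 58 mice was most like that of a member were named by Pearson's r of log2(CPM + 1) among 14380 genes with a mean of at least 1 CPM, as a description. The highest r were with the perforin relative *Mpeg1* for *Inpp5d* (0.98), the leukocyte phosphatase *Ptprc* for *Plcg2* (0.97), *Unc93b1* for *Abi3* (0.96), *C1qc* and *Trem2* for *Spi1* (0.97 and 0.97), *Nckap1l* for *Cd33* (0.94), *Myo1f* for *Ms4a6d* (0.96) and *Nfe2l2* for *Rin3* (0.91). The 3 endocytic genes had lower values and other partners, *Mlf2* for *Bin1* (0.77), *Eif4g2* for *Picalm* (0.79) and *Gabpb2* for *Cd2ap* (0.79). After the mean of each group was subtracted, the top partner was the same gene for *Inpp5d* (0.87), *Plcg2* (0.87), *Abi3* (0.86), *Bin1* (0.66) and *Cd2ap* (0.74). It was *Laptm5* for *Spi1* (0.79), *Pik3r5* for *Cd33* (0.69), *Tgm1* for *Ms4a6d* (0.83), *Fam91a1* for *Picalm* (0.77) and *Hmha1* for *Rin3* (0.81).

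Among injured mice the 7 genes varied together. These 7 are the members that TBI raised in each genotype of these same mice. Their contrast with the other members is thus a description and no test. With each group's mean subtracted, r between pairs of the 7 ran from 0.51 to 0.91 with a median of 0.76 over 21 pairs in the 29 injured mice, and from -0.26 to 0.49 with a median of 0.07 in the 29 sham mice. Between the 7 and *Bin1*, *Picalm* and *Cd2ap* the median was 0.25 in injured and 0.01 in sham mice. In some groups 1 mouse was the highest for most of the 7. Replicate 8 of the injured E3/Abca1+/+ mice had the highest value of its group for 6 of the 7, replicate 6 of the injured E4/Abca1+/+ mice for 6 and replicate 3 of the injured E4/Abca1+/- mice for 5. In the injured E3/Abca1+/- mice no mouse was highest for more than 3, and in the sham groups none for more than 3 or 4. All values of a mouse come from 1 library and 1 piece of tissue. The range of levels was wider and the counts higher in injured mice, and the part of this in the difference between 0.76 and 0.07 was not tested.

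**Figure D4:**
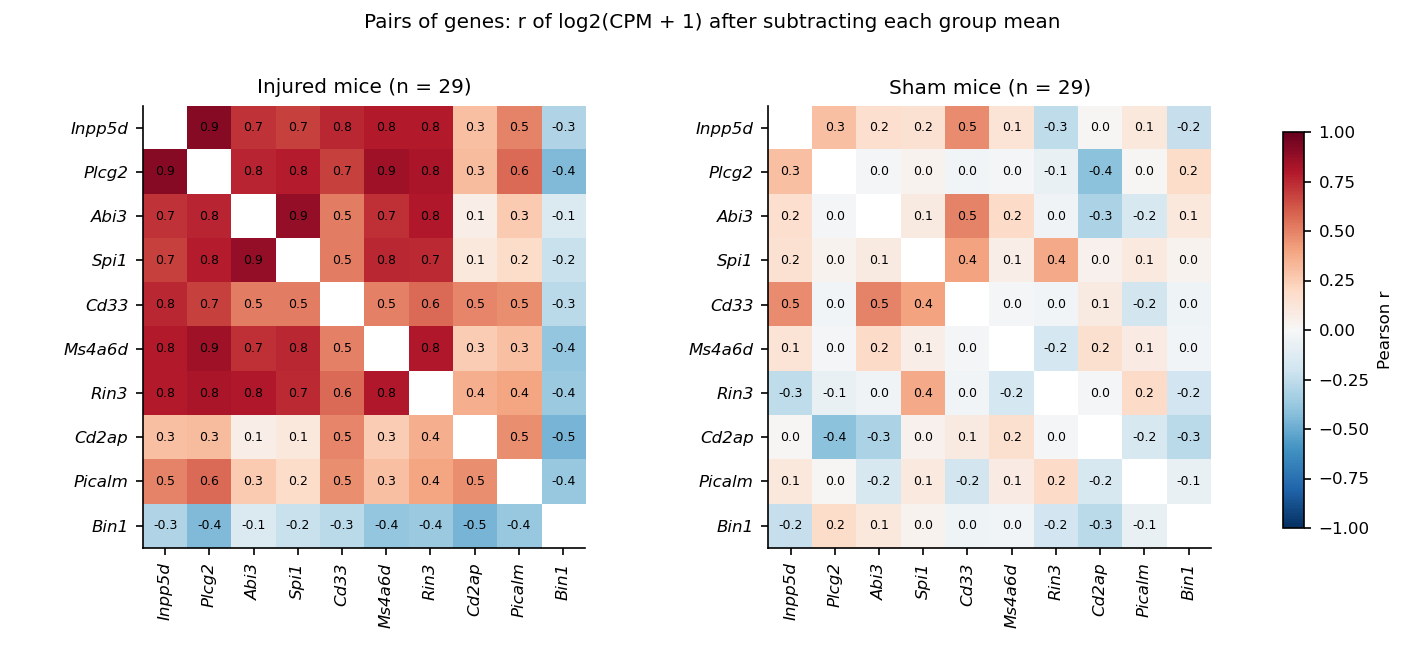
Pearson's r between pairs of the 10 genes over 29 injured mice (left) and 29 sham mice (right), computed on log2(CPM + 1) after subtracting the mean of each of the 4 groups concerned. In injured mice the 7 genes from *Inpp5d* to *Rin3* form a block of positive values with a median of 0.76, and *Bin1* is negative with all others.

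In the same way the genes were set beside the mean log2(CPM + 1) of the 21 microglia markers in the 29 injured mice. Pearson's r and Spearman's rho were 0.95 and 0.95 for *Plcg2*, 0.93 and 0.88 for *Inpp5d*, 0.87 and 0.89 for *Spi1*, 0.87 and 0.86 for *Ms4a6d*, 0.85 and 0.86 for *Rin3* and 0.84 and 0.82 for *Abi3*. *Cd33* was looser, with 0.66 and 0.53. For *Picalm* r was 0.44, for *Cd2ap* 0.24 and for *Bin1* -0.32. Without the 2 mice farthest from the median of the marker score, r was 0.93 for *Plcg2*, 0.55 for *Cd33* and -0.16 for *Bin1*. The 7 genes also followed the 10 astrocyte markers in the injured mice, with r from 0.62 (*Cd33*) to 0.83 (*Plcg2*). The values were 0.36 for *Picalm*, 0.35 for *Cd2ap* and -0.43 for *Bin1*. With the macrophage markers r of the 7 ran from 0.53 (*Abi3*) to 0.76 (*Plcg2*) in these mice, with 0.73 for *Cd33*. *Cd2ap* had an r of 0.75 with the endothelial and mural markers and of -0.68 with the neuron markers, and *Bin1* of 0.57 with the neuron markers. In sham mice these 3 values were 0.10, -0.61 and 0.37. In the 29 sham mice r with the microglia markers ran from 0.02 (*Rin3*) to 0.53 (*Inpp5d*) for the 7.

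The genotype comparisons asked whether *Abca1* copy number or the *APOE* isoform shifted these genes, in the same mice as above. *Abca1*+/- and *Abca1*+/+ mice gave 0 calls among the 10 genes in E3 sham, E3 TBI, E4 sham and E4 TBI mice, where 2.27%, 0.0923%, 0.87% and 1.36% of all genes were called (edgeR). At an unadjusted p under 0.05 there were 1, 1, 1 and 2 of the 10, against 16.4%, 9.18%, 15.9% and 18.3% of all genes, shares near the background. The smallest of these p was that of *Spi1* in injured E4 mice, with a mean of 9.90 ± 2.33 CPM (SD, n = 8) in E4/Abca1+/- and 6.82 ± 1.35 CPM (n = 7) in E4/Abca1+/+ mice (log2 difference 0.54, SE 0.16, adjusted p = 0.101, edgeR). DESeq2's Wald test (0.52, adjusted p = 0.0434) and a single fit over 58 mice (0.54, adjusted p = 0.0257) called it. Calls over all genes rose as well in both.

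E4 and E3 mice differed in 1 of the 10 genes, *Picalm*, in *Abca1*+/- sham mice, where 5.11% of all genes were called. So small a count lies near the background. The lowest, median and highest values of *Picalm* were 93.6, 99.8 and 106 CPM in the 7 E4/Abca1+/- sham mice. They were 79.2, 85.5 and 91.7 CPM in the 7 E3/Abca1+/- sham mice, with no overlap. The share of all genes without overlap between these groups was not counted. The log2 difference was 0.21 (SE 0.04, adjusted p = 0.00514, edgeR). *Picalm* also had higher means in E4 than in E3 mice in the other 3 pairs of groups, with log2 differences of 0.14 in *Abca1*+/+ sham (SE 0.04, adjusted p = 0.24), 0.13 in *Abca1*+/+ TBI (SE 0.06, adjusted p = 0.651) and 0.09 in *Abca1*+/- TBI mice (SE 0.04, adjusted p = 0.303), none past the threshold (edgeR). The call was lost in thinned libraries, where the value was 0.18 (adjusted p = 0.518).

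In *Abca1*+/+ sham, *Abca1*+/+ TBI and *Abca1*+/- TBI mice 0 of the 10 genes differed between isoforms, against 0.356%, 0.211% and 2.74% of all genes. At an unadjusted p under 0.05 there were 1, 1 and 5 of the 10, against 8.81%, 7.18% and 19.1% of all genes. The 5 were *Inpp5d*, *Plcg2*, *Abi3*, *Spi1* and *Cd33*, all higher in E4/Abca1+/- than in E3/Abca1+/- injured mice. *Inpp5d* had 30.7, 36.1 and 52.2 CPM as lowest, median and highest value in the 8 E4/Abca1+/- and 25.6, 27.7 and 32.9 CPM in the 6 E3/Abca1+/- injured mice, which overlapped (log2 difference 0.48, SE 0.13, adjusted p = 0.0539, edgeR). *Spi1* (0.57, SE 0.18, adjusted p = 0.0944), *Abi3* (0.47, SE 0.15, adjusted p = 0.0993), *Plcg2* (0.42, SE 0.14, adjusted p = 0.12) and *Cd33* (0.40, SE 0.17, adjusted p = 0.218) were also short of the threshold (edgeR). *Inpp5d*, *Abi3* and *Spi1* passed with DESeq2's Wald test, with adjusted p of 0.0101, 0.0497 and 0.037, and with a single fit over 58 mice, and *Inpp5d* passed with sex as a covariate (adjusted p = 0.0408). Calls over all genes rose as well in these settings. In the same comparison 3 of the 21 microglia markers were higher and 0 lower, with a median log2 difference of 0.47, and all genes had a median of 0.02.

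**Figure D5:**
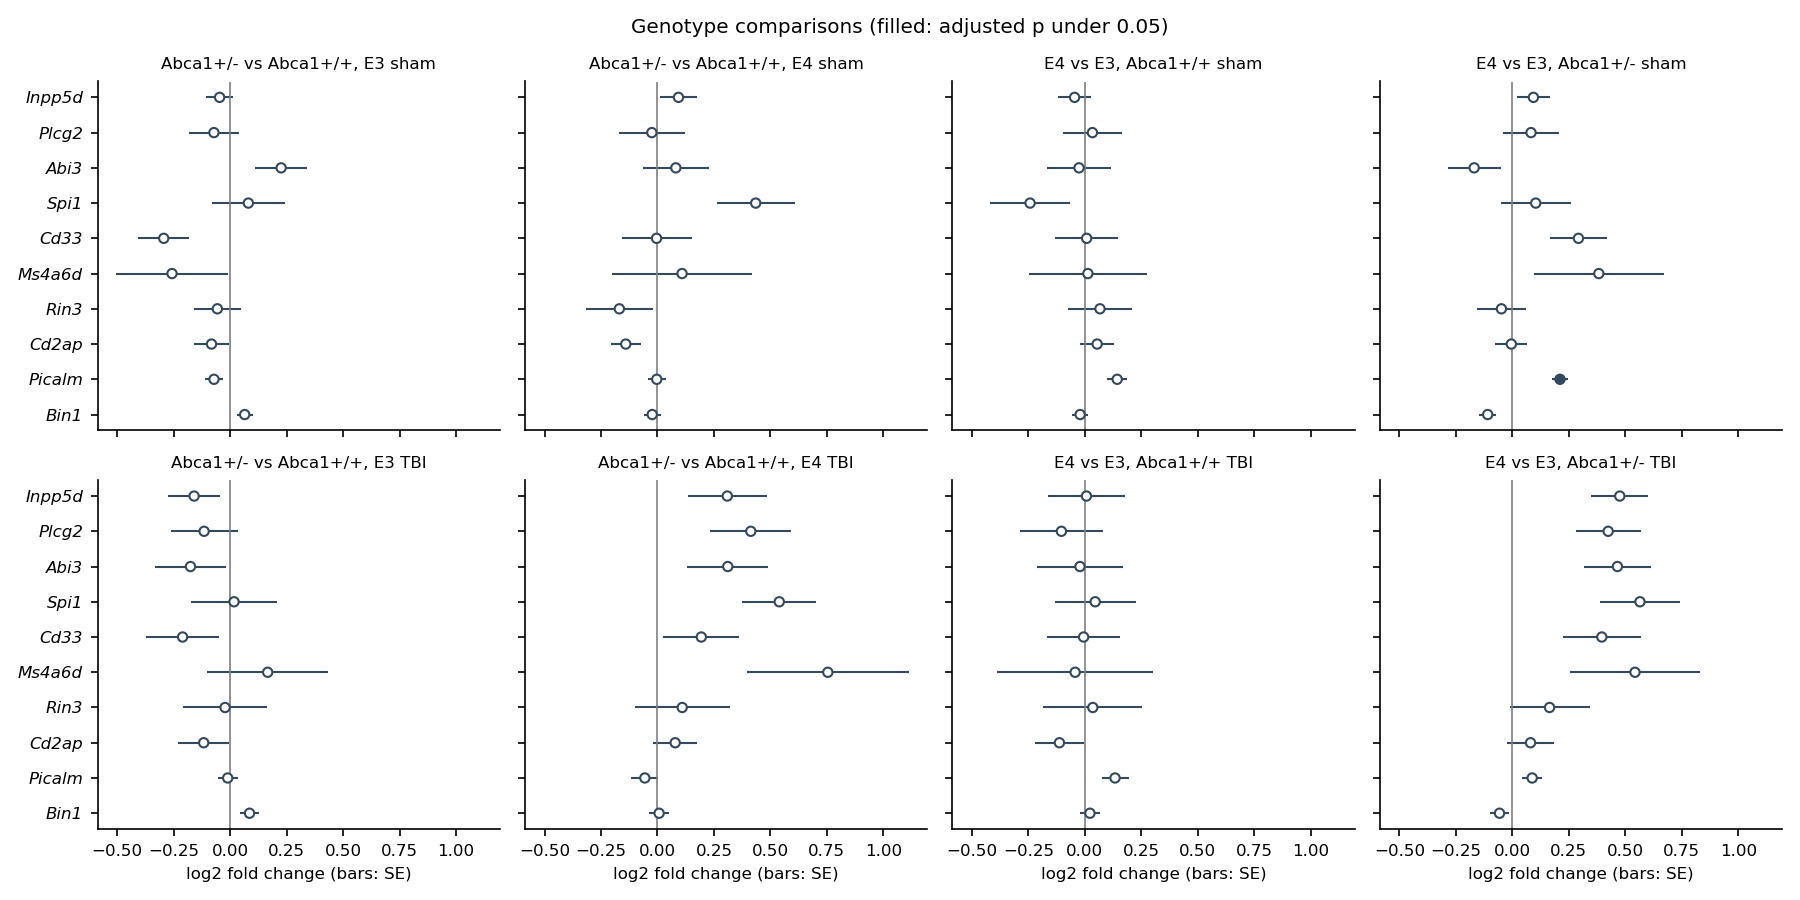
Log2 fold change with its standard error (x axis) of the 10 genes in the 8 genotype comparisons, the upper row in sham and the lower row in injured mice, filled where the adjusted p was under 0.05. The filled symbol is *Picalm* in *Abca1*+/- sham mice, and in injured *Abca1*+/- mice the genes from *Inpp5d* to *Ms4a6d* lie between 0.40 and 0.57 without passing the threshold.

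The interactions tested whether the response to TBI itself differed. For *Abca1* by injury in E3 and in E4 mice and for isoform by injury in *Abca1*+/+ and in *Abca1*+/- mice 0 of the 10 genes passed, as did 0.0% of all genes (edgeR), with 1, 0, 0 and 3 of the 10 and 2.16%, 4.81%, 2.22% and 6.36% of all genes at an unadjusted p under 0.05. In *Abca1*+/- mice the response of *Abi3* was larger by 0.63 in E4 than in E3 (SE 0.19, unadjusted p = 0.00269, adjusted p = 0.718), that of *Inpp5d* by 0.38 (SE 0.15, adjusted p = 0.734), and that of *Picalm* was smaller, at -0.12 (SE 0.06, adjusted p = 0.772, edgeR). These differences between genotypes did not hold against the number of genes tested.

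Males and females were compared in the injury by sex interaction over all 58 mice, where again 0 of the 10 genes and 0.0% of all genes passed (edgeR). At an unadjusted p under 0.05 stood 5 of the 10 and 7.47% of all genes. The response of *Inpp5d* was larger by 0.39 in females (SE 0.11, unadjusted p = 0.000605, adjusted p = 0.316, edgeR), with a lowest, median and highest value of 26.3, 34.2 and 54.5 CPM in 14 injured females and 23.7, 27.9 and 45.9 CPM in 15 injured males. The groups overlapped over most of their range. *Plcg2* (0.35, SE 0.14), *Spi1* (0.43, SE 0.17), *Cd33* (0.35, SE 0.15) and *Rin3* (0.38, SE 0.17) had the same sign. The summed microglia markers had a median of 1796 CPM in injured females and 1348 CPM in injured males, and of 662 and 631 CPM in sham mice, and the part of this in the values of the 10 genes was not tested.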

How the data were processed

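The authors deposited 1 table of read counts per gene for 58 mice, made per the labels and the study's methods with Subread and featureCounts (version 1.5.0) on mm10 and not normalized. It lists 15171 genes once 2 empty lines are left out, and the Entrez identifiers gave back 23 symbols that a spreadsheet had made into dates. CPM used TMM factors computed over all mice, and filterByExpr over 8 groups removed 0 genes. Groups came from the labels, and replicate numbers only name mice. Each comparison used edgeR's quasi-likelihood test (edgeR 4.0.16, R 4.3.3) on the mice of the groups compared, with Benjamini-Hochberg adjustment over all genes at 0.05, tested on simulated data. The mean of 4 genotypes and injury by sex used all mice. Alternatives were DESeq2 1.42.0, its size factors, no filter, 10 counts in every mouse, sex as covariate, a single fit, thinning, and leaving out 2 mice. The members, the lists of partners and markers and the tests were chosen with earlier results of these data known. Named genes are the members, up to 3 genes most like each, and of each list at most 4 with the smallest and 2 with the largest p over the mean of the 4 genotypes; *Inppl1*, *Dab2*, *Gngt2* and *Phospho1* are named besides. The labels do not say that mice of a group were littermates, and each mouse counts as 1 replicate.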

Additional observations from a re-analysis of the deposited data

Results flagged for a closer look

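In 80 tests of 10 genes in 8 groups, 5 values stood far from the rest of their group by Dixon's test of the gap over the range, a test that marks about 1 group in 20 by chance. *Plcg2* was 19.4 CPM in replicate 6 of the injured E4/Abca1+/+ mice, where the next mouse had 12.3 CPM. *Cd33* was 13.3 CPM in replicate 4 of the injured E3/Abca1+/- mice, where the next had 9.68 CPM. *Cd2ap* was marked in 3 of its 4 injured groups, at 36.9 CPM in replicate 8 of the E3/Abca1+/+ mice (next 28.0 CPM), at 32.1 CPM in replicate 3 of the E3/Abca1+/- mice (next 24.6 CPM) and, as the lowest value, at 17.9 CPM in replicate 2 of the E4/Abca1+/+ mice (next 24.0 CPM). No sham group was marked for any of the 10 genes.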

How the results depend on the processing

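No paired analysis was possible because the labels give no replicate numbers that groups share. Of the counts of members called in 18 comparisons, all stayed within 1.5 times of the main count with DESeq2's size factors. They did so too with 10 counts in every mouse, which tested 8 of the 10 members. The setting without a filter was the main fit itself, since filterByExpr removed 0 genes, and so could not differ. DESeq2's Wald test and the single fit over 58 mice each gave 3 calls in place of 0 for E4 against E3 in *Abca1*+/- TBI mice and 1 in place of 0 for *Abca1*+/- against *Abca1*+/+ in E4 TBI mice, and sex as a covariate gave 1 in place of 0 for the former. Thinned libraries gave 3 in place of 8 for TBI in E3/Abca1+/- mice and 0 in place of 1 for E4 against E3 in *Abca1*+/- sham mice. In the latter, calls over all genes fell from 404 higher and 371 lower to 8 and 4. Leaving out the injured E4/Abca1+/- mouse with the lowest hippocampus markers (4.08 against 5.47 to 5.79 in the others) or the sham E4/Abca1+/- mouse with the highest microglia markers (4.95 against 4.27 to 4.56) changed no call of a member in the injury comparisons that held that mouse, and no count of calls in its other comparisons. The log2 fold change of *Picalm* after TBI in E4/Abca1+/- mice was -0.0012 and changed sign with 10 counts in every mouse (0.0033), sex as a covariate (0.0077) and thinning (0.059). Libraries of 4421308 to 37877346 counts limit *Ms4a6d* and *Spi1* most, with as few as 5 and 7 counts in a mouse.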
